A study of Mus musculus with 11 samples.

Results

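A set of 9 genes that are commonly used to describe reactive astrocytes was followed across cell classes in single-nucleus RNA sequencing (snRNA-seq) of the mouse central nervous system: Gfap, Vim, Serpina3n, Lcn2, Aqp4, S100b, Osmr, Cd44 and Myoc. They were chosen by name, and all 9 were found among the 25827 genes that each of the 11 libraries lists. For each library, unique molecular identifiers (UMIs, 1 per captured transcript) of each gene were summed over the nuclei of each cell class, and divided by the class total of that library to give CPM, the usual depth-corrected unit of read counts. CPM does not correct for gene length or for introns, so levels are compared here between samples and classes for 1 gene at a time, never between genes.

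Nuclei came from the cerebellum and brainstem of 1 hemisphere and from the upper cervical spinal cord of adult male mice, 8 to 12 weeks old. All mice carried the floxed allele of Il12rb2, which encodes a chain of the IL-12 receptor. NestinCre/+Il12rb2fl/fl mice, called NestinCre here, also carried a Cre recombinase driven by Nestin regulatory sequences, which acts in neuroectodermal precursors and so targets neurons, oligodendrocytes and astrocytes but not immune cells. Il12rb2fl/fl controls without the Cre are called fl. Experimental autoimmune encephalomyelitis (EAE), a T cell-driven inflammation of the central nervous system, was induced with the myelin peptide MOG35-55 in complete Freund's adjuvant and pertussis toxin, and tissue was taken on day 10. There were 4 libraries of fl EAE, 4 of NestinCre EAE, 2 of fl naive mice (replicates 2 and 3) and 1 of NestinCre naive mice (replicate 2). EAE replicates 1 to 3 of both genotypes were sequenced in run 1, both EAE replicates 4 and fl naive 2 in run 2, and fl naive 3 and NestinCre naive 2 in run 3. The study describes its EAE libraries as coming from separate mice, while the labels give no mouse for each library, and p-values measure the spread between libraries.

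The libraries held 13120 to 22951 barcodes and 40761007 to 86063464 UMIs, with a median of 1910 to 3314 UMIs per nucleus past the filters on genes and mitochondrial reads. After filters, 159215 nuclei were kept and 21 classes were named from marker genes, leaving 11246 nuclei (7.06%) unnamed. Granule cells, the most numerous neurons of the cerebellum, made up 107350 nuclei. Astrocytes made up 1353 nuclei (56 to 208 per library) and Bergmann glia, the radial astrocytes of the cerebellar cortex, made up 759 (37 to 119 per library). All 14 astrocyte markers and all 10 Bergmann glia markers were detected in their class in every group. The classes were named from these markers. Both lists were also fully detected in granule cells and mature oligodendrocytes of every group, so detection does not tell the classes apart. No pair of libraries shared more than 140 barcodes. Il12rb2 itself gave 0 to 3 UMIs per library in astrocytes. In Bergmann glia it gave 2, 2, 3 and 2 UMIs in the fl EAE libraries and 0, 0, 0 and 1 in the NestinCre EAE libraries. Both fl naive libraries and NestinCre naive 2 also gave 0 there. Over all nuclei Il12rb2 stood at 11.0 to 16.8 CPM in fl EAE and 8.02 to 16.8 CPM in NestinCre EAE. In mature oligodendrocytes it stood at 1.69 to 4.17 CPM and 1.83 to 3.23 CPM. As 3' counts do not read the deleted part of a gene, no loss of the receptor is read from these values.

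Astrocytes respond to injury and inflammation by changing their form and their transcripts, a state called reactivity. Gfap and vimentin, encoded by Gfap and Vim, are intermediate filament proteins of the astrocyte skeleton, and a rise in Gfap is the usual histological sign of reactivity. Serpina3n is a secreted serine protease inhibitor, and Lcn2 a secreted protein that binds iron-loaded siderophores. Both are acute-phase genes that respond to cytokines. Aqp4 is the water channel of astrocyte end-feet at blood vessels, S100b a calcium-binding protein, Osmr the receptor chain that pairs with gp130 to bind oncostatin M, Cd44 a hyaluronan receptor, and Myoc encodes myocilin, a secreted glycoprotein. None of the 9 genes is restricted to astrocytes: vimentin is abundant in endothelial and immune cells, Cd44 in leukocytes, Lcn2 in neutrophils and Osmr in stromal and vascular cells.

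In the GRCm39 assembly Gfap (ENSMUSG00000020932) lies on the minus strand of chromosome 11 from 102778159 to 102791738, and Myoc (ENSMUSG00000026697) on the plus strand of chromosome 1 from 162466718 to 162477265. Vim (ENSMUSG00000026728), Lcn2 (ENSMUSG00000026822) and Cd44 (ENSMUSG00000005087) all lie on chromosome 2, from 13578738 to 13587639, from 32274645 to 32278264 and from 102641486 to 102732010. Serpina3n (ENSMUSG00000021091) lies on chromosome 12 from 104372810 to 104380597, within a cluster of closely related serpin genes, so that the assignment of its reads between copies is uncertain. S100b (ENSMUSG00000033208) lies on chromosome 10 from 76085090 to 76097159, Osmr (ENSMUSG00000022146) on chromosome 15 from 6843053 to 6904450, and Aqp4 (ENSMUSG00000024411) on chromosome 18. All 9 are annotated as protein coding.

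The classes differed widely in which of the 9 genes they held. Over all libraries, Gfap reached 99.4 CPM, Aqp4 523 CPM and Myoc 14.4 CPM in astrocytes, the last largely from fl naive 2. Serpina3n stood at 6.49 CPM in astrocytes and at 10.7 CPM in mature oligodendrocytes. Vim stood at 397 CPM in endothelial cells and 174 CPM in infiltrating phagocytes. Cd44 stood at 477 CPM in infiltrating phagocytes, 391 CPM in neutrophils and 238 CPM in T or NK cells. Lcn2 stood at 100.2 CPM in neutrophils and 92.2 CPM in endothelial cells, the latter from 67 nuclei. Osmr stood at 231 CPM in endothelial cells, 114.5 CPM in vascular leptomeningeal cells or fibroblasts and 96 CPM in mural cells. These are pooled levels of classes built from the same nuclei and were not tested against each other.

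**Figure D1:**
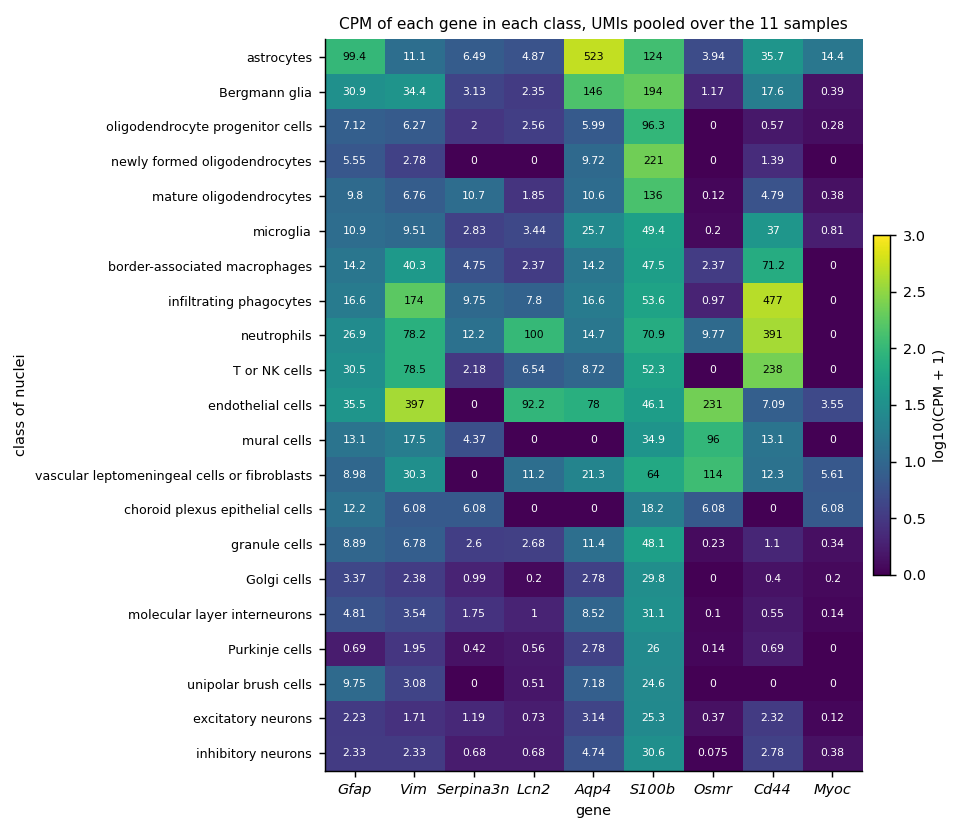
Heat map of the pooled level of each of the 9 genes (columns) in each of the 21 named cell classes (rows), printed as CPM over all 11 libraries and coloured by log10(CPM + 1). Gfap, Aqp4 and Myoc stand out in the astrocyte row, Vim and Osmr in the endothelial row, Lcn2 in the neutrophil and endothelial rows, and Cd44 in the rows of immune cells.

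Most UMIs of these genes nevertheless lay outside astrocytes, often in the numerous granule cells. Of 4025 Gfap UMIs in kept nuclei, 57.9% lay in granule cells, 12.1% in mature oligodendrocytes and 10.7% in astrocytes. Of 7230 Aqp4 UMIs, 41.5% lay in granule cells and 31.2% in astrocytes. Of 26972 S100b UMIs, 46.7% lay in granule cells and 25.1% in mature oligodendrocytes. Of 1607 Serpina3n UMIs, 42.4% lay in granule cells and 33.2% in mature oligodendrocytes. Of 1057 Lcn2 UMIs, 66.4% lay in granule cells. Cd44, with 2058 UMIs, was spread otherwise, with 23.8% in infiltrating phagocytes and 14.0% in granule cells. Free RNA from broken cells can be counted in any droplet, and a sum over all nuclei takes it in.

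To set the classes beside that background, each nucleus was thinned to 1000 UMIs. Aqp4 was then seen in 35.3% of 1331 astrocytes and in 1.17% of 99291 granule cells. Gfap was seen in 7.21% of astrocytes (95% exact binomial interval 5.88 to 8.74%), in 3.72% of Bergmann glia and in 0.920% of granule cells. S100b was seen in 12.5% of astrocytes, 18.6% of Bergmann glia and 4.95% of granule cells. Cd44 was seen in 3.68% of astrocytes and 0.119% of granule cells, whereas Vim, at 0.902% against 0.700%, and Serpina3n, at 0.676% against 0.281%, were rare in both. Without thinning the shares in astrocytes were 14.1% for Gfap, 64.1% for Aqp4 and 30.2% for S100b, at sample medians of 2245.5 to 4204 UMIs per astrocyte nucleus and 1642 to 3038 UMIs per granule cell. Intervals cover counting error only.

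The main comparison of the study was between genotypes at day 10 of EAE. It was tested in 13 classes that had at least 10 nuclei in each library, with edgeR's quasi-likelihood test and sequencing run in the fit, and p-values were adjusted over all genes of a class by the Benjamini-Hochberg procedure. The 9 genes passed the filter on low counts in 30 combinations of gene and class. In 7 of the 30 the gene was higher in NestinCre EAE at an adjusted p under 0.05, and in none was it lower. Over all genes and classes 1036 of 102014 tests (1.02%) passed that threshold, and 831 of the 1036 were higher in NestinCre EAE (0.815% of all tests). The 7 were Gfap in astrocytes, Gfap and Serpina3n in mature oligodendrocytes, Cd44 in microglia, and Gfap, Lcn2 and Vim in granule cells, and 13 of the 30 had an unadjusted p under 0.05. A gene passed the filter in a class only where it had enough counts, so the 30 do not cover the 9 genes evenly. The counts of 1 genotype could suffice. Cd44 in microglia passed through NestinCre EAE alone (54.1 to 81.6 CPM, against 0 to 11.2 CPM in fl EAE). Serpina3n in mature oligodendrocytes (15.9 to 50.0 CPM, against 0.563 to 9.04 CPM in fl EAE) passed largely through NestinCre EAE. So did Lcn2 in granule cells (1.41 to 16.8 CPM, against 0.277 to 1.15 CPM in fl EAE). The count of 7 is thus partly set by the filter.

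Gfap in astrocytes had the smallest adjusted p of the 7. The 4 fl EAE libraries held 38.6, 62.1, 61.9 and 27.8 CPM of Gfap, from 14, 30, 41 and 17 UMIs. The 4 NestinCre EAE libraries held 255, 245, 168 and 137 CPM of Gfap, from 52, 56, 57 and 46 UMIs. The groups did not overlap, and 1.67% of the genes tested in astrocytes had NestinCre EAE libraries all above the fl EAE libraries. The means were 47.6 ± 17.2 and 201 ± 57.7 CPM (SD, n = 4 and 4), a log2 fold change of 2.08 (SE 0.21) with an adjusted p of 6.437e-07. In astrocytes 0.622% of 6426 genes were called in either direction.

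The naive libraries fell on both sides of that gap. fl naive 2 held 246 CPM of Gfap, as high as the NestinCre EAE libraries, whereas fl naive 3 held 54.4 CPM, within the fl EAE range, and NestinCre naive 2 held 80.7 CPM. Gfap came from few nuclei in each library. It was seen in 8, 14, 25 and 13 astrocytes of fl EAE 1 to 4 and in 19, 27, 20 and 22 of NestinCre EAE 1 to 4. After thinning, Gfap was seen in 26 of 644 fl EAE astrocytes (4.04%, interval 2.65 to 5.86%) and in 47 of 374 NestinCre EAE astrocytes (12.6%, interval 9.38 to 16.4%). The nuclei of a group were pooled over its libraries, so these intervals leave out the spread between libraries and are no test of genotype. The astrocyte with the most Gfap UMIs held 3 to 7 of them in each fl EAE library, 9 to 14 in each NestinCre EAE library and 17 in fl naive 2. With that nucleus left out of every library, Gfap stood at 27.8, 54.5, 51.6 and 23.1 CPM in fl EAE and at 189, 207, 129 and 112 CPM in NestinCre EAE, still without overlap.

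**Figure D2:**
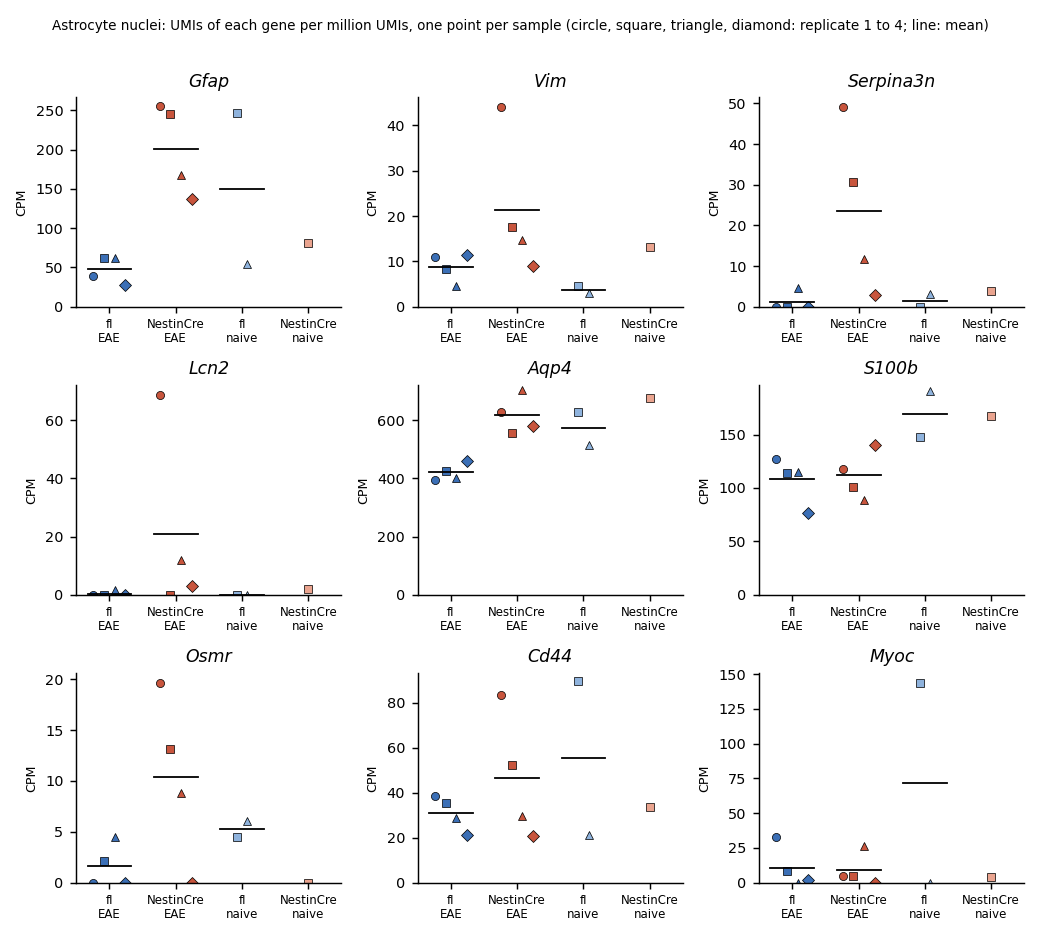
Levels of the 9 genes in astrocytes, 1 panel per gene, in CPM on a linear axis from 0, with 1 symbol per library (circle, square, triangle and diamond for replicates 1 to 4) and a line at the mean of the group. Gfap and Aqp4 have all 4 NestinCre EAE libraries above all 4 fl EAE libraries, S100b does not separate the genotypes, and Myoc is high in fl naive 2 alone.

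Whether Gfap was called changed with the removal of doublets, droplets with more than 1 nucleus, and with 1 nucleus among them. When nuclei with a high doublet score were kept and only doublet clusters were left out, the log2 fold change in astrocytes was 0.95 with an adjusted p of 0.7792. When no doublet was removed it was 0.98 with an adjusted p of 0.9002. Those fits regained 1 nucleus of fl EAE 3 that held 134 Gfap UMIs among 28354 UMIs and 7368 genes, against 41 Gfap UMIs in the astrocytes of that library that were kept after doublet removal. With that nucleus alone left out and the other high-scoring nuclei kept, the log2 fold change was 1.81 with an adjusted p of 2.571e-05.

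Astrocytes fell into 3 clusters, and the genotype difference in Gfap was present in both kinds. A pair of clusters, of 588 and 444 nuclei, was led by Gpc5, and a cluster of 321 nuclei was led by Aldh1a1 and Stk32a. The 9 genes were kept out of the genes used for clustering. In the Gpc5-led clusters Gfap stood at 14.4, 28.3, 49.8 and 17.6 CPM in fl EAE and at 103, 109, 115 and 123 CPM in NestinCre EAE (log2 fold change 1.96, adjusted p 4.354e-04). In the Aldh1a1-led cluster Gfap stood at 119, 155, 130 and 57.2 CPM in fl EAE and at 905, 808, 536 and 207 CPM in NestinCre EAE (log2 fold change 2.37, adjusted p 6.999e-05). The groups did not overlap in either.

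The Aldh1a1-led cluster held more of most of these genes. Pooled over libraries, Gfap stood at 272 CPM there against 55.8 CPM in the Gpc5-led clusters, and Aqp4 at 966 against 411 CPM. Cd44 stood at 123 against 13.7 CPM, and Vim at 37.9 against 4.36 CPM. For Myoc, fl naive 2 held all 7 UMIs of the Gpc5-led clusters and 25 of the 55 of the Aldh1a1-led cluster, and the other libraries stood at 0 CPM in the former and at 0 to 209.9 CPM in the latter. S100b stood at 117 against 125 CPM, and Osmr, with 2 against 15 UMIs, at 2.30 against 4.36 CPM. The cluster took 18.3 to 29.2% of astrocytes in fl EAE libraries, 19.2 to 22.3% in NestinCre EAE libraries and 22.8 to 29.4% in naive libraries.

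**Figure D3:**
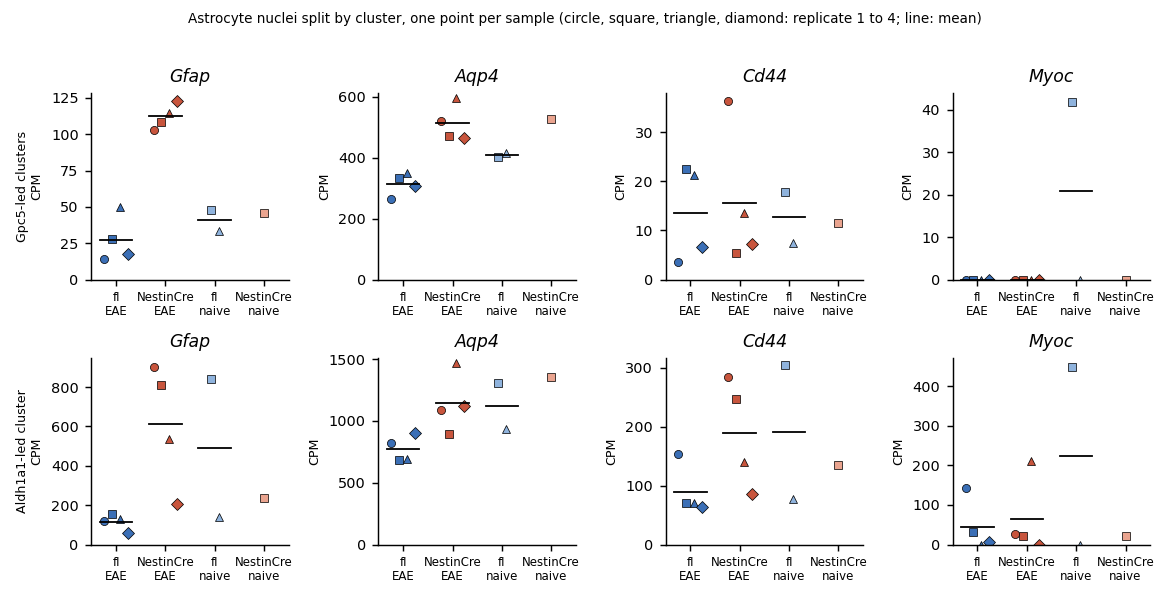
Levels of Gfap, Aqp4, Cd44 and Myoc in CPM, per library, in the Gpc5-led astrocyte clusters and in the Aldh1a1-led astrocyte cluster, with symbols for replicates and a line at the group mean. Gfap of the NestinCre EAE libraries lies above that of the fl EAE libraries in both, at 103 to 123 CPM in the Gpc5-led clusters and 207 to 905 CPM in the Aldh1a1-led cluster.

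Aqp4, the end-foot water channel, differed less in astrocytes and did not pass the test. The fl EAE libraries held 394, 427, 401 and 461 CPM of Aqp4 and the NestinCre EAE libraries 628, 555, 705 and 579 CPM, without overlap. The naive libraries held 627, 517 and 677 CPM of Aqp4, in the range of NestinCre EAE or between the groups. The log2 fold change was 0.59 (SE 0.15) with an unadjusted p of 5.584e-04 and an adjusted p of 0.08345. Within the Gpc5-led clusters Aqp4 was called, with a log2 fold change of 0.74 and an adjusted p of 0.02672. In Bergmann glia Aqp4 ranged from 123 to 176 CPM in fl EAE and from 111 to 243 CPM in NestinCre EAE (log2 fold change 0.38, SE 0.25, adjusted p 0.8149).

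S100b, a calcium-binding protein that mature astrocytes and oligodendrocytes share, did not separate the genotypes. In astrocytes it stood at 127, 114, 115 and 76.8 CPM in fl EAE and at 118, 101, 88.5 and 140 CPM in NestinCre EAE. Its estimate was 0.11 on the log2 scale (SE 0.21, adjusted p 0.9901). In Bergmann glia it stood at 161 to 202 CPM in fl EAE and 152 to 258 CPM in NestinCre EAE (0.10, SE 0.22, adjusted p 0.9724), and in mature oligodendrocytes it differed by -0.03 on the log2 scale (SE 0.15, adjusted p 0.9738).

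The hyaluronan receptor Cd44 in astrocytes followed single libraries more than groups. It stood at 38.6, 35.2, 28.7 and 21.3 CPM in fl EAE and at 83.4, 52.5, 29.5 and 20.9 CPM in NestinCre EAE, so the groups overlapped (log2 fold change 0.54, SE 0.33, adjusted p 0.8884). fl naive 2 held 89.6 CPM of Cd44, and the other naive libraries 21.2 and 33.8 CPM.

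The remaining 5 genes had too few UMIs in astrocytes to be tested in this comparison. Serpina3n gave 0, 0, 3 and 0 UMIs in the fl EAE libraries and 10, 7, 4 and 1 in the NestinCre EAE libraries, spread over 4, 4, 4 and 1 nuclei. The ratio of its summed CPM was 14.1 (exact 95% interval for counting error 4.22 to 73.3), with NestinCre EAE 4 below fl EAE 3. Lcn2 gave 1 UMI in fl EAE against 19 in NestinCre EAE, of which 14 came from 8 nuclei of NestinCre EAE 1. Its ratio was 36.4 with an interval of 5.79 to 1512, and 11.7 without NestinCre EAE 1, and NestinCre EAE 2 held none. Without NestinCre EAE 1 the ratio of Serpina3n was 9.39. All fl EAE UMIs of both genes came from fl EAE 3.

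Osmr gave 4 UMIs in fl EAE and 10 in NestinCre EAE (ratio 4.79, interval 1.38 to 20.9), and the ratio was 13.2 without fl EAE 3. Vim gave 18 and 21 UMIs (ratio 2.24, interval 1.13 to 4.45), and its libraries overlapped at 4.53 to 11.4 and 8.95 to 44.1 CPM. These ratios treat each UMI as independent and carry no error between libraries.

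Myoc in astrocytes came from a handful of nuclei. All 12 UMIs of fl EAE 1 lay in 1 nucleus and all 9 of NestinCre EAE 3 in another. fl naive 2 held 32 Myoc UMIs in 10 nuclei, with no more than 7 in any of them, which gave 143 CPM against 0 to 33.1 CPM in every other library. In the Aldh1a1-led cluster of fl naive 2 Myoc reached 448 CPM.

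Markers of neutrophils moved with genotype in the astrocyte sums. The summed level of 8 neutrophil markers was 4.90 to 12.4 CPM in fl EAE astrocytes and 17.5 to 44.1 CPM in NestinCre EAE astrocytes, with 2 and 1 of the 8 at 0. The 11 markers of infiltrating phagocytes summed to 93.6 to 127 CPM and 74.3 to 147 CPM, with 5 and 3 at 0, and the 10 T or NK cell markers to 2.07 to 6.04 CPM and 0 to 8.95 CPM, with 6 at 0 in both groups. The 8 granule-cell markers summed to 605 to 1169 CPM and 572 to 1039 CPM. Their part in the member values was not tested.

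Free RNA was set beside Gfap by dividing its astrocyte level by that of granule cells in the same library. The quotient was 7.08, 11.8, 5.39 and 11.7 in fl EAE and 13.4, 13.3, 10.5 and 15.2 in NestinCre EAE, so the groups overlapped. It was 62.9 in fl naive 2, 8.38 in fl naive 3 and 11.5 in NestinCre naive 2. Gfap was thus above the granule-cell level in astrocytes of all 11 libraries, and the granule-cell level itself was higher in NestinCre EAE.

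In Bergmann glia, Gfap was sparse. The fl EAE libraries gave 0, 3, 7 and 10 UMIs of Gfap (0, 8.18, 26.4 and 19.9 CPM) and the NestinCre EAE libraries 25, 10, 9 and 7 UMIs (173, 77.7, 68.2 and 36.7 CPM). The groups did not overlap, as for 1.55% of the genes tested in Bergmann glia higher in NestinCre EAE, and the ratio was 5.72 with an exact interval for counting error of 3.35 to 10.1. Without NestinCre EAE 1 the ratio was 3.85, and with any other EAE library left out it was 4.86 to 7.25. The quotient of Gfap to granule cells of the same library was 0, 1.55, 2.30 and 8.39 in fl EAE. It was 9.12, 4.21, 4.24 and 4.06 in NestinCre EAE, so these quotients overlapped. NestinCre naive 2 held 8 UMIs of Gfap (29.6 CPM), above all 4 fl EAE libraries, and both fl naive libraries held none. Between the genotypes in EAE, Gfap did not pass the filter on low counts there and has no test, and between fl EAE and fl naive it was not called (adjusted p 0.8545). After thinning, Gfap was seen in 1.89% of 371 fl EAE and 9.05% of 199 NestinCre EAE Bergmann glia, in 4.69% of 64 NestinCre naive nuclei and in 0 of 119 fl naive nuclei. For the last the exact interval reached 3.05%, which limits nuclei with a UMI and not nuclei that express the gene. The nuclei of a group were pooled over its libraries, so these shares carry no spread between libraries.

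Serpina3n and Lcn2 were at 0 in Bergmann glia of all 4 fl EAE libraries and gave 8 and 6 UMIs in NestinCre EAE. NestinCre EAE 1 alone held 6 of the 8 and 5 of the 6. Only 0.076% of 3945 genes were called in Bergmann glia. Of the 9 genes only Aqp4 and S100b passed the filter on low counts there, and neither was called. Serpina3n and Lcn2 have no test there. The 8 neutrophil markers summed to 3.97 to 15.1 CPM in fl EAE and to 10.5 to 76.2 CPM in NestinCre EAE Bergmann glia, and their part in these values was not tested.

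In mature oligodendrocytes, the myelin-forming cells, Serpina3n was higher in NestinCre EAE. The fl EAE libraries held 0.961, 2.18, 9.04 and 0.563 CPM of Serpina3n, from 3, 7, 55 and 2 UMIs. The NestinCre EAE libraries held 50.0, 29.8, 16.2 and 15.9 CPM, from 155, 94, 53 and 127 UMIs. The naive libraries held 1.19, 4.20 and 2.52 CPM, so all NestinCre EAE libraries stood above all others, and 3.82% of the genes tested in this class separated the EAE groups that way. The log2 fold change was 2.92 (SE 0.50) with an adjusted p of 0.008969, and 1.77% of 12139 genes were called in this class. Serpina3n passed the filter on low counts there largely through NestinCre EAE, so the call is partly set by the filter.

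Mature oligodendrocytes fell into 4 clusters, all led by Prr5l and St18, and the smallest of them, of 1401 nuclei, held much of the Serpina3n. It had 264, 137, 242 and 639 nuclei in NestinCre EAE and 112 in fl EAE 3, but no more than 2 in any other library. Serpina3n stood at 88.3, 113, 52.2 and 44.4 CPM in that cluster in NestinCre EAE and at 83.6 CPM in fl EAE 3. In all other mature oligodendrocytes Serpina3n stood at 0.961, 2.18, 5.19 and 0.565 CPM in fl EAE and at 37.6, 21.6, 8.19 and 8.65 CPM in NestinCre EAE, again without overlap. Divided by the granule-cell level of the same library, Serpina3n in mature oligodendrocytes was 1.62, 3.13, 3.00 and 1.02 in fl EAE and 6.35, 5.48, 4.57 and 3.02 in NestinCre EAE. These quotients overlapped, with NestinCre EAE 4 below fl EAE 2.

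Gfap was called in mature oligodendrocytes as well, where its level was close to that of granule cells. It stood at 8.33, 7.17, 9.20 and 4.22 CPM in fl EAE and at 23.2, 23.4, 16.5 and 8.64 CPM in NestinCre EAE (log2 fold change 1.27, SE 0.19, adjusted p 0.005291). Its quotient to granule cells lay between 0.801 and 1.78 in all 11 libraries. Vim in mature oligodendrocytes had a log2 fold change of 0.97 (SE 0.30) and did not pass (adjusted p 0.2018), and its quotient to granule cells lay between 0.648 and 1.54. Aqp4 (0.00, adjusted p 0.9979) and Cd44 (0.14, adjusted p 0.913) were not called there. Without the run term in the fit the adjusted p of Gfap in mature oligodendrocytes was 0.1083.

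**Figure D4:**
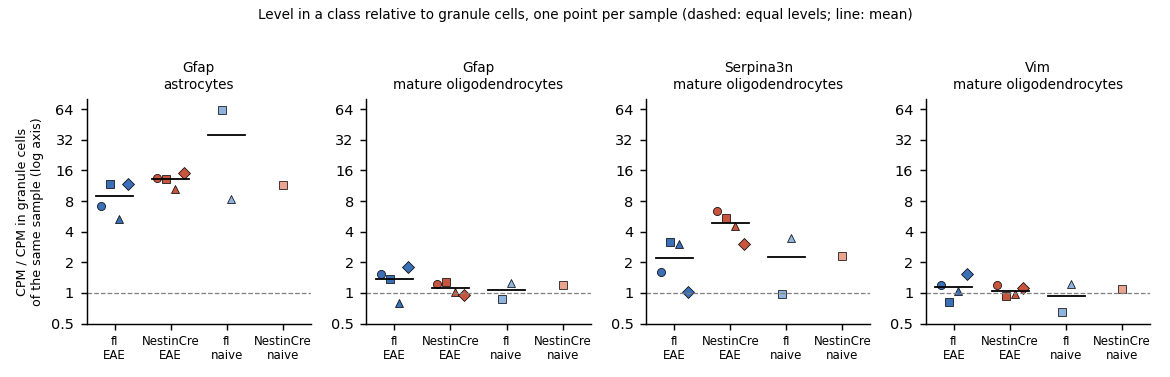
Level in a class divided by the level in granule cells of the same library, on a log axis, for Gfap in astrocytes and for Gfap, Serpina3n and Vim in mature oligodendrocytes, 1 symbol per library. Gfap in astrocytes lies between 5.39 and 62.9, whereas Gfap in mature oligodendrocytes lies between 0.801 and 1.78.

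In granule cells 3 of the genes were called, all at low levels. Gfap stood at 5.45, 5.28, 11.5 and 2.37 CPM in fl EAE and at 19.0, 18.5, 16.1 and 9.04 CPM in NestinCre EAE (log2 fold change 1.41, SE 0.24, adjusted p 0.02818), with 9.04 CPM in NestinCre EAE 4 below fl EAE 3. Lcn2 stood at 0.347, 1.15, 0.695 and 0.277 CPM against 16.8, 4.77, 6.42 and 1.41 CPM (3.42, SE 0.54, adjusted p 0.02026). Vim stood at 5.65, 5.37, 5.05 and 3.30 CPM against 15.1, 9.12, 11.4 and 5.36 CPM (1.03, SE 0.20, adjusted p 0.04313), with NestinCre EAE 4 below fl EAE 1. Gfap lost its call without the run term (adjusted p 0.1869) and without any 1 of fl EAE 1 and 2 or NestinCre EAE 1, 2 and 3. Vim lost it without the run term (adjusted p 0.1523) and without any 1 of fl EAE 1, 2 and 3 or NestinCre EAE 1 and 3, and Lcn2 without fl EAE 1 (adjusted p 0.09326) or fl EAE 2 (adjusted p 0.08581). All 3 also missed the threshold with the replicate block (adjusted p 0.07462 for Gfap, 0.09947 for Vim and 0.08337 for Lcn2). Serpina3n had a log2 fold change of 2.27 (SE 0.50) and missed the threshold (adjusted p 0.07067), as did Cd44 at 1.73 (SE 0.42, adjusted p 0.107). In granule cells 1.49% of 15785 genes were called.

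Gfap is not a gene of mature neurons, and its level in granule cells serves here as a background. The summed neutrophil markers in granule cells were 16.2 to 20.2 CPM in fl EAE and 20.1 to 96.2 CPM in NestinCre EAE, and those of infiltrating phagocytes 10.3 to 22.3 CPM and 18.3 to 129 CPM. The part of free RNA in the granule-cell values was not tested.

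Cd44 in microglia, the resident macrophages of the brain, changed the most among the calls, by a log2 fold change of 3.56 (SE 0.44, adjusted p 3.49e-05). The fl EAE libraries held 0, 11.2, 6.58 and 3.42 CPM of Cd44, from 0, 2, 3 and 1 UMIs. The NestinCre EAE libraries held 64.4, 54.1, 81.6 and 59.2 CPM, from 42, 20, 44 and 66 UMIs. The naive libraries held 7.69, 3.23 and 0 CPM, in the range of fl EAE. All 4 NestinCre EAE libraries stood above the fl EAE libraries, as for 6.42% of genes in microglia. The 11 markers of infiltrating phagocytes summed to 16.8 to 54.8 CPM in fl EAE microglia and 52.9 to 267 CPM in NestinCre EAE microglia, with 3 and 0 of them at 0. The 8 microglia markers summed to 4855 to 5929 CPM and 3511 to 4559 CPM. The part of such cells in the Cd44 values was not tested. In microglia 6.44% of 7350 genes were called, a larger share than in any other class tested.

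Part of the microglial Cd44 lay in a cluster led by Ly86 and Iigp1, at 89.8, 93.2, 150 and 85.0 CPM in NestinCre EAE. It stood there at 16.5 CPM in fl EAE 3 (2 UMIs) and 0 CPM in fl EAE 4. In fl naive 2 it stood at 101.6 CPM, from 3 UMIs in 20 nuclei, within the NestinCre EAE range. The remaining libraries had too few nuclei in that cluster for a level. Outside that cluster Cd44 stood at 0, 11.7, 2.99 and 3.86 CPM in fl EAE and at 42.6, 38.1, 41.2 and 42.6 CPM in NestinCre EAE. In infiltrating phagocytes, monocyte-derived cells that hold far more Cd44, the order was the opposite, with 659, 1153, 504 and 508 CPM in fl EAE (12, 3, 26 and 30 UMIs) and 478, 402, 419 and 452 CPM in NestinCre EAE. That class was too small in fl EAE to be tested, with 10, 3, 25 and 23 nuclei against 172, 107, 131 and 34.

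Osmr, the oncostatin M receptor chain, was held by vascular and stromal classes rather than by astrocytes. In vascular leptomeningeal cells or fibroblasts it stood at 26.6, 12.2, 105 and 137 CPM in fl EAE and at 293, 530, 279 and 86.9 CPM in NestinCre EAE, from 1 to 14 and 6 to 24 UMIs per library. In endothelial cells, it stood at 139 to 604 CPM in fl EAE and 171 to 409 CPM in NestinCre EAE. The groups overlapped in both classes, and neither gave a test for Osmr between the genotypes in EAE.

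**Figure D5:**
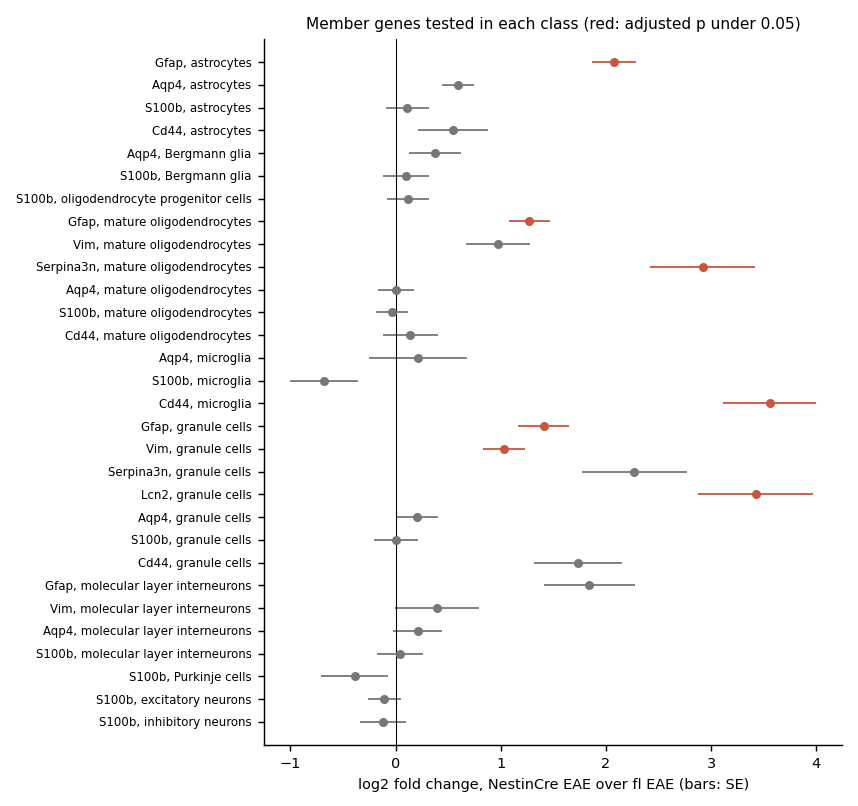
Log2 fold change of NestinCre EAE against fl EAE with its standard error for each of the 30 combinations of gene and class that were tested, with those at an adjusted p under 0.05 in red. The 7 red points all lie above 0, and the S100b points lie between -0.68 and 0.12.

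Summed over all kept nuclei, 4 of the 9 genes were called, where 3.38% of 17998 genes were. These were Gfap (log2 fold change 1.45, SE 0.19, adjusted p 0.008571), Lcn2 (3.27, SE 0.66, adjusted p 0.03064), Serpina3n (2.18, SE 0.46, adjusted p 0.03975) and Cd44 (1.77, SE 0.34, adjusted p 0.02552). Aqp4 (0.01, adjusted p 0.9948), S100b (-0.01, adjusted p 0.9948), Osmr (0.71, adjusted p 0.4354), Vim (1.05, adjusted p 0.09038) and Myoc (-1.02, adjusted p 0.4933) were not. The calls over all nuclei were lost in 1 of 20 alternatives for Gfap (no run term, adjusted p 0.06662), in 3 for Cd44 (without fl EAE 1, fl EAE 2 or NestinCre EAE 3, adjusted p up to 0.1157), and in 5 for Lcn2 (4 of them without fl EAE 1, 2 or 3 or NestinCre EAE 3, adjusted p up to 0.129). That of Serpina3n was lost in 10, among them without any 1 EAE library other than fl EAE 3 (adjusted p up to 0.1354). The NestinCre EAE libraries also held more immune nuclei. Neutrophils numbered 8, 2, 4 and 11 in fl EAE and 164, 67, 66 and 3 in NestinCre EAE, and T or NK cells 8, 6, 9 and 5 against 54, 50, 92 and 42. Their part in the sums was not tested.

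The shares of both astroglial classes were lower on average in NestinCre EAE, and whether each passed the threshold changed when 1 library was left out. Astrocytes made up 1.10 ± 0.197% of kept nuclei in fl EAE and 0.695 ± 0.239% in NestinCre EAE (SD, n = 4 and 4). The difference was -0.408 percentage points, with a p of 0.08571 in an exact two-sided permutation test, which in this design cannot go below 0.02857. Bergmann glia made up 0.634 ± 0.135% and 0.359 ± 0.0381%, a difference of -0.275 percentage points with an exact permutation p of 0.02857. Without any 1 NestinCre EAE library the exact permutation p for Bergmann glia was 0.05714, from 35 assignments in place of 70. The shares of Bergmann glia did not overlap with or without that library, at 0.495 to 0.811% in fl EAE and 0.321 to 0.405% in NestinCre EAE. Among nuclei other than granule cells the astrocyte difference was -1.71 percentage points, and without NestinCre EAE 3 it was -0.521 points among all kept nuclei, both with an exact permutation p of 0.02857.

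The effect of EAE within each genotype was tested across all 11 libraries with run in the fit, so that it rested on run 2, the only run with both EAE and naive libraries. In fl mice 2 of 50 combinations of gene and class were called, both lower in EAE and both in astrocytes, where 0.38% of 8691 genes were called (0.122% over all classes). Gfap fell by 2.97 on the log2 scale (SE 0.38, adjusted p 2.184e-05), and Myoc fell by 6.77 (SE 1.19, adjusted p 0.001996). Both calls rested on fl naive 2, the fl naive library of run 2, with its 246 CPM of Gfap and 143 CPM of Myoc.

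Without the run term the 2 calls were lost. Gfap then had a log2 fold change of -1.51 (adjusted p 0.1556) and Myoc of -2.85 (adjusted p 0.4014). With fl naive 2 left out as well, against fl naive 3 alone, Gfap had a log2 fold change of -0.10 (adjusted p 0.9968) and Myoc one of 4.88 with the opposite sign. In the Gpc5-led clusters alone Gfap had -0.88 (adjusted p 0.8032). Cd44 in astrocytes had -2.25 (SE 0.56) in the fit with run and did not pass (adjusted p 0.06319). It was called in the Aldh1a1-led cluster alone (-2.46, adjusted p 0.03142) and with no filter beyond 1 count (-2.16, adjusted p 0.03306), and turned to 0.58 without the run term and fl naive 2.

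In NestinCre mice none of the 50 combinations was called by edgeR between EAE and naive, with 8 at an unadjusted p under 0.05 and none called by DESeq2, where 0.0389% of all tests were called. Gfap in astrocytes had a log2 fold change of -1.54 (SE 0.59, adjusted p 0.5929) in the fit with run, although all 4 NestinCre EAE libraries, at 137 to 255 CPM, stood above the 80.7 CPM of NestinCre naive 2. No run holds both NestinCre EAE and NestinCre naive libraries, so this estimate rests on fl naive 2 and fl naive 3 to join the runs. It turned to 1.32 (adjusted p 0.4345) without the run term and to 0.57 (adjusted p 0.9605) in the Gpc5-led clusters, so no direction is read from it. NestinCre naive is 1 library and was assumed to vary like the other groups. The difference of the EAE effect between genotypes was also called by edgeR or DESeq2 in none of the 50, with 7 at an unadjusted p under 0.05 and 0.00156% of all tests called. For Gfap in astrocytes that difference was 1.43 (SE 0.54) with an adjusted p of 0.926. These comparisons share the same naive and EAE libraries with those above.

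Other genes of astrocyte reactivity were followed by lists. Of 4 tested genes of a list of pan-reactive genes other than the 9, C4b, a complement component, was called in astrocytes between the genotypes in EAE, where 0.622% of all genes were called. It stood at 22.1, 22.8, 36.2 and 26.2 CPM in fl EAE and at 152, 245, 218 and 119 CPM in NestinCre EAE (log2 fold change 2.73, SE 0.24, adjusted p 8.64e-08). Of the 4, 2 had a log2 fold change above 0, and the median was 0.83, beside 0.01 over all genes tested in astrocytes. C4b passed the filter on low counts in astrocytes largely through NestinCre EAE, so its call there is partly set by the filter. By the same edgeR test C4b was also called in granule cells (3.33, adjusted p 0.01738) and microglia (2.76, adjusted p 2.983e-05). C4b reads may be shared with its near-identical neighbour C4a.

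Of the 12 genes called A1, a set first described after endotoxin, 3 were tested in astrocytes. All 3 were higher in NestinCre EAE, with a median of 1.96, where 0.622% of all genes were called. The filter on low counts could be passed through 1 genotype alone, as by Iigp1 through NestinCre EAE. The count of 3 is thus partly set by the filter. Iigp1, an interferon-induced GTPase, stood at 0, 0, 19.6 and 0 CPM in fl EAE and at 235, 78.7, 100.3 and 137 CPM in NestinCre EAE (adjusted p 4.693e-06). H2-D1, a class I histocompatibility gene, stood at 27.6, 29.0, 24.1 and 1.63 CPM in fl EAE and at 39.2, 35.0, 53.1 and 182 CPM in NestinCre EAE (1.96, adjusted p 0.04653). Without NestinCre EAE 4 it had a log2 fold change of 0.78 (adjusted p 0.5563), without fl EAE 4 also 0.78 (adjusted p 0.512), and it lost the call without any 1 of fl EAE 1, 2 and 3 and NestinCre EAE 3 as well. Fkbp5, a chaperone of the glucocorticoid receptor, stood at 52.4, 33.1, 22.6 and 31.1 CPM in fl EAE and at 186, 74.3, 26.6 and 161 CPM in NestinCre EAE (1.70, adjusted p 0.02218), so the groups overlapped. It lost the call without any 1 of fl EAE 2, 3 and 4 and NestinCre EAE 1 and 4, with an adjusted p up to 0.2211. No gene of the A2 list, described after ischaemia, had enough counts in astrocytes to be tested between the genotypes in EAE. H2-D1 and Iigp1 belong to families of similar genes, so the assignment of their reads is uncertain.

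The gp130 and STAT3 pathway is the one through which oncostatin M and interleukin-6 act, and STAT3 is a known regulator of Gfap. In astrocytes Stat3 itself was higher in NestinCre EAE. It stood at 68.9, 76.6, 78.5 and 63.7 CPM in fl EAE and at 191, 206, 168 and 110 CPM in NestinCre EAE (1.22, SE 0.19, adjusted p 0.0004532). The NestinCre EAE libraries lay above all fl EAE and all naive libraries.

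Genes that stand for the resting functions of astrocytes were not called between the genotypes. None of 10 tested genes of the Aqp4 membrane complex and edema list (median 0.05), none of 3 intermediate filament and plakin genes and none of 13 homeostatic genes (median 0.13, 12 of the 13 above 0) passed in astrocytes. Between fl EAE and fl naive, the gap junction gene Gjb6 of the Aqp4 membrane complex list was higher in EAE astrocytes (1.93, SE 0.43, adjusted p 0.02237). It stood at 265, 217, 140 and 289 CPM in fl EAE, at 76.2 CPM in fl naive 2 and at 202.5 CPM in fl naive 3, so the groups overlapped. With run in the fit, this estimate also rests on fl naive 2.

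In Bergmann glia no tested gene of the pan-reactive, A1, Aqp4 membrane complex, filament or homeostatic lists was called between the genotypes in EAE, among 1, 1, 10, 1 and 10 tested.

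In mature oligodendrocytes, of 8 tested A1 genes 7 were higher in NestinCre EAE, with a median log2 fold change of 2.93, where 1.77% of all genes were called. Those with the largest changes were Gbp2 (4.13, adjusted p 0.009581), Iigp1 (3.52, adjusted p 0.0497), Psmb8 (3.20, adjusted p 0.03106) and H2-T23 (3.13, adjusted p 0.009581), which act in interferon responses and in antigen processing and presentation. Of 6 pan-reactive genes 2 were higher, C4b (3.37, adjusted p 0.0003057) and the chemokine Cxcl10 (3.01, adjusted p 0.02315). Of the gp130 and STAT3 genes, Bcl3 (3.07, adjusted p 0.005542) and Stat3 (1.27, adjusted p 0.004556) were higher. Without 1 library, Iigp1 and Psmb8 each lost the call in 5 of 8 cases (fl EAE 1, 2 and 4 and NestinCre EAE 1 and 4), Cxcl10 in 3 (fl EAE 1 and 2 and NestinCre EAE 1) and Gbp2 in 1 (fl EAE 1), at adjusted p up to 0.1424. In fl EAE most UMIs of these 4 genes came from fl EAE 3, with 203 of Iigp1, 52 of Psmb8, 18 of Cxcl10 and 13 of Gbp2, against 0 to 2 in each other fl EAE library. Without fl EAE 3 the fitted log2 fold changes were 9.94 for Iigp1, 6.45 for Psmb8, 7.92 for Cxcl10 and 5.48 for Gbp2, and H2-T23 stood at 4.51, so their order rests on that library. Gbp2 passed the filter on low counts through NestinCre EAE alone (4.51 to 42.6 CPM, against 0 to 2.14 CPM in fl EAE). So did Bcl3 (4.01 to 13.9 CPM, against 0.320 to 1.15 CPM) and Cxcl10 (3.51 to 11.0 CPM, against 0 to 2.96 CPM). Iigp1, Psmb8 and H2-T23 passed largely through NestinCre EAE. The 7 of 8 A1 genes, and the calls of Bcl3 and Cxcl10, are thus partly set by the filter. None of the Aqp4 membrane complex, filament or homeostatic genes was called in this class between genotypes.

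For EAE against naive in mature oligodendrocytes, the homeostatic list gene Plpp3 was lower in fl EAE (-0.84, adjusted p 0.04375, where 0.802% of genes were called) and C4b was higher in NestinCre EAE (6.12, SE 0.79, adjusted p 0.01159, where 0.214% were called). Plpp3 stood at 46.5 to 64.8 CPM in fl EAE, at 85.3 CPM in fl naive 2 and at 67.2 CPM in fl naive 3. With run in the fit, the Plpp3 estimate rests on fl naive 2 as the naive library of run 2. C4b stood at 321, 176, 231 and 304 CPM in NestinCre EAE, at 11.5 CPM in NestinCre naive 2 and at 14.0 to 36.3 CPM in fl EAE. The fitted value rests on fl naive 2 (10.56 CPM) and fl naive 3 (30.55 CPM) to join the runs. The summed markers of infiltrating phagocytes in mature oligodendrocytes were 10.9 to 20.1 CPM in fl EAE and 19.3 to 142 CPM in NestinCre EAE, and those of neutrophils 12.95 to 18.6 CPM and 14.5 to 99.4 CPM. Their part in the values of this class was not tested.

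The genes whose level over the 11 libraries in astrocytes was most like that of Gfap were S100a6 (Pearson r of 0.93 on log2(CPM + 1)), Nkain2 (0.89), Arl15 (0.88), Abca8b (0.88) and Hpgds (0.87), among 8691 genes. For Serpina3n they were Zfp758 (0.91), Cebpd (0.89), Zfhx3 (0.89), Med15 (0.88) and Sel1l3 (0.88). Each point is 1 library and the genes of a library share its depth and nuclei, so the coefficients are a description. Over the 21 classes, the pattern of Gfap was most like those of Kcne1l (0.95), Agt (0.92), Cxcl14 (0.90), Olfr287 (0.90) and Tst (0.88), and that of Aqp4 most like those of Sdc4 (0.93), Agt (0.92), C2cd4d (0.92), Cxcl14 (0.90) and Itih3 (0.90). Agt was also among the markers that named the astrocytes.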

How the data were processed

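The authors deposited, for each library, UMI counts per gene and barcode from 10x Genomics 3' chemistry. Per the labels, reads were aligned to GRCm39 with Cell Ranger 6.0.2, and the file headers of run 1 name version 7.0.0. Introns were counted per the study's methods. From these counts, barcodes with at least 200 genes in run 1 or 500 in runs 2 and 3 and less than 5% mitochondrial UMIs were retained (188089), doublets were scored with Scrublet, and 159215 nuclei were kept after high-scoring nuclei and doublet clusters were left out. Nuclei were clustered on 40 principal components of 3000 variable genes (without the 9 genes), after Harmony integration, with 20 neighbours and Leiden (scanpy 1.11.5, leidenalg 0.10.2), and clusters were named from marker lists. UMIs were summed per library and class and tested with edgeR 4.0.16 (quasi-likelihood, TMM, filterByExpr, run as covariate; R 4.3.3, limma 3.58.1), with Benjamini-Hochberg adjustment within a class and a threshold of 0.05. DESeq2 1.42.0, other normalization, filters, doublet treatment, clustering and left-out libraries were alternatives. On simulated counts for 6426 astrocyte genes in the genotype comparison, edgeR recovered 34 of 50 genes changed by a log2 fold change of 1 and 48 of 48, 50 of 50 and 50 of 50 at 2, 3 and 4.

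The 9 genes and the gene lists were chosen with earlier results of these data known. Genes named in the text are the 9, the called genes of each list in astrocytes, Bergmann glia or mature oligodendrocytes (at most 4 per list and comparison, by the size of the log2 fold change), and the 5 genes most correlated with Gfap or Serpina3n over libraries and with Gfap or Aqp4 over classes. Some items of these lists are not reported here, and the counts of the gp130 and STAT3 list are left out.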

Additional observations from a re-analysis of the deposited data

Results flagged for a closer look

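Of 64 groups of 4 libraries with at least 10 UMIs of a gene in a class, 2 held a library far from the other 3, where chance flags about 1 in 20 groups. Lcn2 in microglia stood at 21.45 CPM in NestinCre EAE 1, with a gap to the nearest library of 0.874 of the group's range. NestinCre EAE 1 was also the library with the most neutrophil nuclei (164). Serpina3n in granule cells stood at 3.01 CPM in fl EAE 3, with a gap of 0.942 of the range. fl EAE 3 was also the fl EAE library with the most Serpina3n in mature oligodendrocytes (9.04 CPM) and with 112 nuclei in the smallest of the 4 clusters of that class.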

How the results depend on the processing

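The 7 calls between genotypes became 16 without a filter beyond 1 count (of 106 combinations tested), 4 without the run term, 12 in run 1 alone and 5 to 12 when 1 library was left out, with 12 without NestinCre EAE 4 or without fl EAE 4. They were 9 with DESeq2 and 6 to 8 under the other doublet, normalization and clustering alternatives, and all were higher in NestinCre EAE. The deviations of same-numbered libraries correlated at -0.026, -0.023 and 0.048 in astrocytes, at 0.050, 0.075 and 0.037 in Bergmann glia, where 6 of 6 libraries correlated best with their own number, and at -0.12, 0.13 and 0.0019 in mature oligodendrocytes. In none of the 13 classes were all 3 above 0.1, so the numbers were not taken to pair the libraries. A fit with the replicate block gave 4 calls.

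Gfap in astrocytes was called in 21 of 23 alternatives, the exceptions being the 2 that kept the nucleus of fl EAE 3 with 134 Gfap UMIs. Serpina3n in mature oligodendrocytes (2.56 to 4.40) and Cd44 in microglia (3.28 to 3.88) were called in 20 of 20. Gfap and Vim in granule cells each lost the call in 7 of 20 alternatives, Lcn2 there in 3 and Gfap in mature oligodendrocytes in 1. Aqp4 in astrocytes gained a call in 4 of 23: in the Gpc5-led clusters, in run 1 alone (0.70, adjusted p 0.026), without NestinCre EAE 4 (0.71, adjusted p 0.02252) and without fl EAE 4 (0.70, adjusted p 0.02213), over a range of adjusted p from 0.02213 to 0.5867. S100b in astrocytes turned to -0.0020 in the Gpc5-led clusters, -0.16 in run 1 alone, and -0.16 without NestinCre EAE 4 or fl EAE 4, and ranged from -0.16 to 0.24 without 1 library.

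The 2 calls between fl EAE and fl naive became 3 without the filter, 1 with DESeq2, 1 with doublet clusters alone removed, 1 with no doublet removed, 0 without the run term, 0 also without fl naive 2, and 1 to 2 without 1 library (1 without fl EAE 4, 2 without fl naive 3). The log2 fold change of Gfap in astrocytes was -2.32 (adjusted p 0.1432) with doublet clusters alone removed and -2.47 (adjusted p 0.3552) with no doublet removed. Without the run term and fl naive 2, Cd44 in astrocytes turned to 0.58 and Myoc to 4.88. Cd44 in astrocytes gained a call in 2 of 18 alternatives. Between NestinCre EAE and naive, the 0 calls became 1 without the run term, where Gfap, Cd44 and Myoc in astrocytes turned to 1.32, 0.37 and 1.35, and Gfap turned to 0.57 in the Gpc5-led clusters. The cause of these changes was not tested.

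The share of astrocytes differed by -1.71 percentage points among nuclei other than granule cells (exact permutation p of 0.02857) and by -0.521 to -0.323 points without 1 library. That of Bergmann glia differed by -0.321 to -0.216 points, with a p of 0.05714 by the exact permutation test without any 1 NestinCre EAE library. Without thinning, the shares of nuclei with a UMI were 14.1% (Gfap), 64.1% (Aqp4) and 30.2% (S100b) in astrocytes, 8.43% (Gfap) and 43.9% (S100b) in Bergmann glia and 1.80% (Serpina3n) in mature oligodendrocytes. With the run term, EAE against naive could not be fitted in fl mice without fl naive 2, nor in NestinCre mice without NestinCre naive 2, and the difference of the EAE effect could not be fitted without fl naive 3 or NestinCre naive 2.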
